A study of Homo sapiens with 8 samples.

Results

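Ribosome biogenesis and RNA polymerase I genes were followed in SK-Hep1, a human cell line started from a liver adenocarcinoma. The set was named by gene symbol, from known roles in making ribosomes, and holds 40 of the 58302 genes in the deposited tables. It was chosen with earlier results of these data known, so its contrast with all genes is no independent test. All 40 were found, and all 40 reached a mean of at least 1 FPKM (fragments per kilobase, a level scaled to gene length and library size) over the 8 libraries, as did 13899 genes in all. By role, the 40 comprise 7 genes of RNA polymerase I and its factors, 3 of the box C/D and 3 of the box H/ACA small nucleolar ribonucleoproteins, 11 of small subunit processing, 11 of large subunit assembly and 5 of the nucleolar scaffold.

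The study compared cells with ectopic SLC29A2, which encodes an equilibrative nucleoside transporter, with mock control cells of the same line. Each of the 2 kinds of cells received sorafenib and dipyridamole together (both drugs), dipyridamole alone, sorafenib alone or a control treatment, with 1 library per condition and 8 libraries in all. Sorafenib inhibits several kinases, among them RAF and growth factor receptors, and dipyridamole blocks nucleoside transporters and phosphodiesterases. The sources used here do not give doses, treatment times, the vector, or whether the SLC29A2 cells were 1 clone or a pool.

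RNA polymerase I transcribes a single long precursor of ribosomal RNA in the nucleolus, with UBTF bound at the ribosomal DNA and RRN3 bringing the polymerase to the promoter. Small nucleolar ribonucleoproteins then modify chosen bases, box C/D particles by methylating ribose and box H/ACA particles by converting uridine to pseudouridine. Large protein complexes fold and cut the precursor into the RNAs of the small and the large subunit. The messages of these factors are widely known to be high in growing cells, and many are known targets of the transcription factor MYC. The ribosomal RNA itself was not measured here, since the libraries were made from polyadenylated RNA.

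The libraries held 14.07 to 16.69 M reads as implied by the FPKM values, so that 1 read in a 2 kb gene gave 0.03 to 0.0355 FPKM. The fewest reads recovered for any of the 40 genes in a library were 79, for RRP1B in control cells given dipyridamole alone (95% exact Poisson interval 62.5 to 98.5, counting error only), and the most were 19369, for NPM1. SLC29A2 stood at 1477 to 3040 FPKM in SLC29A2 cells and at 7.11 to 7.81 FPKM in control cells. Markers of hepatocytes summed to 1.78 to 5.64 FPKM per library (8 genes, 2 of them at 0 throughout, ALB at most 0.111) and those of endothelium to 2.05 to 5.64 FPKM (8 genes), both near 0, whereas mesenchymal markers summed to 1025 to 1715 FPKM (6 genes). Epithelial markers (5 genes, of which KRT8, KRT18 and KRT19 could be tested) summed to 733 to 1075 FPKM in the 4 libraries with dipyridamole and to 2019 to 2781 FPKM in the 4 without it, and mesenchymal markers to 1025 to 1114 FPKM with it and 1244 to 1715 FPKM without it. The epithelial sum was mostly KRT8 and KRT18. KRT19 stood at 60.5 to 81.3 FPKM with dipyridamole and 30.4 to 69.8 FPKM without it. Leukocyte markers stayed at 0.343 to 1.94 FPKM (5 genes). The dipyridamole-treated libraries of control cells stood apart, with 2.77% (both drugs) and 2.55% (dipyridamole alone) of reads outside protein-coding genes, against 1.64% to 1.98% in the other 6 libraries.

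Promoter sequences are shown for 5 of the genes because MYC and its partner MAX bind the letters CACGTG, known as the E-box, and several of these genes are known MYC targets. UTP18 and BYSL are given as genes that passed the test for each drug and carry the letters, NOP56 and NOP16 as genes that passed for each drug and lack them, and FBL as a gene that passed for neither drug and carries them. Each window runs from 250 bases before to 50 bases after the start site, 5′ to 3′ along the gene, from RefSeq on GRCh38.p14, and capitals mark CACGTG, which reads the same on both strands. The windows lie at chr17:51260296-51260595 (plus strand), chr6:41921249-41921548 (plus), chr20:2652382-2652681 (plus), chr5:176388549-176388848 (minus) and chr19:39846330-39846629 (minus).
UTP18: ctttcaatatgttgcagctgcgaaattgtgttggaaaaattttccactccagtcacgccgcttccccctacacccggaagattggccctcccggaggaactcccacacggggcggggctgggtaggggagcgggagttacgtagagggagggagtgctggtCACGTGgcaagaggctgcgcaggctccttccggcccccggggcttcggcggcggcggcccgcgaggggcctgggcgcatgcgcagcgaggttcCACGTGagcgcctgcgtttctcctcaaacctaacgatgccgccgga
BYSL: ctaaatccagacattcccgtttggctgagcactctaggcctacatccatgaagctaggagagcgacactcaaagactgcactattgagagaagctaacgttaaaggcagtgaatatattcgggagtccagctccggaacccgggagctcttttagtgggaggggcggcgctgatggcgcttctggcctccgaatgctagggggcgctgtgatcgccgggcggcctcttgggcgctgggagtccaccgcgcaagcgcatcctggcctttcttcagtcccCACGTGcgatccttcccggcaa
NOP56: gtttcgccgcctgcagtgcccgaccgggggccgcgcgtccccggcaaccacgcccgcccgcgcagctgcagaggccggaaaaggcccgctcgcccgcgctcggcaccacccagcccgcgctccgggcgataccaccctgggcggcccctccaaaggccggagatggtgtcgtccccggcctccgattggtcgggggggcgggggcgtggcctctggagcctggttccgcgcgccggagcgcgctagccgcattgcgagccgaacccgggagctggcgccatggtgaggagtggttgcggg
NOP16: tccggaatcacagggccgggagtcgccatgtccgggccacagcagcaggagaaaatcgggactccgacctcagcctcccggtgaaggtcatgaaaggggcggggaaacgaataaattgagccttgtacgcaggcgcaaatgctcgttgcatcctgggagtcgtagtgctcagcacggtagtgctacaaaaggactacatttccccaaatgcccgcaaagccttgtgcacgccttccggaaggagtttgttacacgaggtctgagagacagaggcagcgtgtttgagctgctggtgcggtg
FBL: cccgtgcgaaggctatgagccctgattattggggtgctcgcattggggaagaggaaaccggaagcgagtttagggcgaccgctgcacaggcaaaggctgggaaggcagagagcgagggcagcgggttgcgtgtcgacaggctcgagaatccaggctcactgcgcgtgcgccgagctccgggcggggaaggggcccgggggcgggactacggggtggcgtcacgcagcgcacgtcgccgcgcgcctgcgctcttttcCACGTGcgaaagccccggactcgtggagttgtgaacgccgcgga
In UTP18 the letters begin 89 bases before and again 4 bases after the start site, in BYSL 28 bases after it and in FBL 6 bases after it. Of the 40 genes, 33 have a window in the RefSeq table, and 14 of these 33 (42.4%) hold CACGTG. RRP12, RRP1B, NOLC1, BOP1, NOP58, RRS1 and POLR1E are without one. Among all tested genes with a window, 1223 of 9613 (12.7%) hold it, as do 8.77% of all 27305 genes of the table. Counted by window, 14 of the 42 windows of these genes (33.3%) hold it, and 7.26% of all 35116 windows do. The letters were present in 6 of the 15 genes in the table that passed the test for either drug and in 8 of the 18 that passed for neither. A match is a description of the letters only.

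Summed over the 40 genes, the share of all recovered reads was 0.389% in SLC29A2 cells and 0.364% in control cells given both drugs. It was 0.436% in SLC29A2 cells and 0.423% in control cells given dipyridamole alone, and 0.476% in SLC29A2 cells and 0.436% in control cells given sorafenib alone. With the control treatment it was 0.574% in SLC29A2 cells and 0.552% in control cells. The share was thus highest in both libraries without a drug and lowest in both libraries with 2 drugs. Without NPM1, the most abundant of the messages, the shares were 0.297% in SLC29A2 cells and 0.282% in control cells with both drugs, against 0.462% in SLC29A2 cells and 0.437% in control cells with the control treatment.

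Dipyridamole was associated with lower messages of 16 of the 40 genes and with a higher message of none. Each drug effect was estimated over all 8 libraries in an additive model of cell type, sorafenib and dipyridamole, as the mean log2 difference of the 4 library pairs that differ in that drug alone, and tested with limma on log2(FPKM + 1) with Benjamini-Hochberg adjustment over all 13899 genes at a threshold of 0.05. Of all genes tested, 12.6% fell with dipyridamole and 17.5% rose. The 16 genes were POLR1A, POLR1B and UBTF of the polymerase group, NOP56 and NOP58 of the box C/D and DKC1 of the box H/ACA particles, UTP18 and BYSL of the small subunit, NOP2, NOP16, RRS1, LAS1L and GNL3 of the large subunit, and NCL, NOLC1 and DDX21 of the nucleolar scaffold. The median log2 difference of the 40 genes was -0.29, against 0.07 for all genes tested, and 32 of the 40 differences were negative. In 10 of the 40 genes, all 4 libraries with dipyridamole lay below all 4 without it, against 11.7% of all genes tested, and in 21 the library with dipyridamole was the lower of every pair, against 18.1%. Without the SLC29A2-cell library given sorafenib 9 of the 40 passed, and without that given the control treatment 10 did. In bulk RNA, a smaller share of cells with a high message and less message per cell cannot be told apart. Of the epithelial and mesenchymal markers, KRT8, KRT18, VIM and THY1 fell with dipyridamole, and FN1 and COL1A2 had negative differences that did not pass. The differences of KRT19 (0.57 ± 0.23; limma adjusted p = 0.0954), PDGFRB (0.34 ± 0.20; 0.222) and COL1A1 (0.07 ± 0.20; 0.801) were positive and did not pass. The part of these markers in the result was not tested.

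Sorafenib was associated with lower messages of 7 of the 40 genes and higher messages of none: POLR1C, NOP56, UTP18, BYSL, NOP16, NOLC1 and MYBBP1A. Of all genes tested, 2.17% fell with sorafenib and 5.94% rose. The median log2 difference of the 40 genes was -0.21, against 0.09 for all genes tested, and 36 of the 40 differences were negative. All 4 sorafenib libraries lay below all 4 others for POLR1C, NOP16 and MYBBP1A, that is for 3 of 40 genes against 2.14% of all genes tested, and 22 of the 40 were the lower of every pair, against 13.1%. Calls were lost when a library was left out, which also removes a residual degree of freedom. Without the control-cell libraries given both drugs, dipyridamole, sorafenib or the control treatment, 1, 0, 1 and 3 of the 40 genes passed, and without the SLC29A2-cell libraries given both drugs, dipyridamole, sorafenib or the control treatment, 2, 0, 6 and 1 passed, with each fit leaving 7 libraries. The log2 differences themselves kept their sign, at -0.49 to -0.39 for NOLC1, -0.50 to -0.39 for UTP18, -0.51 to -0.36 for BYSL, -0.67 to -0.44 for NOP56, -0.97 to -0.70 for NOP16 and -0.74 to -0.45 for POLR1C. Hepatocyte markers summed to 3.73 to 5.64 FPKM with sorafenib and 1.78 to 2.38 FPKM without it, nearly all of it SERPINA1 (0.87 ± 0.14; limma adjusted p = 0.0114), and leukocyte markers to 0.740 to 1.94 FPKM with it and 0.343 to 0.669 FPKM without it. Mitochondrial transcripts took a smaller share of reads in the sorafenib library of all 4 pairs, 1.89% to 3.35% with sorafenib and 3.72% to 5.76% without it. Of the epithelial markers, KRT18 fell with sorafenib (-0.49 ± 0.12; limma adjusted p = 0.0391). KRT8 (-0.02 ± 0.18; limma adjusted p = 0.95) and KRT19 (-0.15 ± 0.23; 0.733) did not pass. The part of these markers and of the mitochondrial transcripts in the result was not tested.

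Cells given both drugs had lower messages of 24 of the 40 genes than cells given the control treatment, with RRP12 as the 1 gene that was higher. This comparison of 2 library pairs was added after the data had been seen, in a limma model with 4 separate treatments beside cell type, in which 13.5% of all genes tested fell and 25.2% rose. In this balanced layout its log2 differences equal the sum of the 2 drug effects by arithmetic, so that they are no separate measurement. Beside the genes already named for either drug, POLR1E, GAR1, NOP14, UTP20, BOP1 and WDR12 passed. The median of the 40 genes was -0.54, against 0.16 for all genes tested, and both libraries with both drugs were the lower of their pair for 30 genes, against 28.4% of all genes. In the single pair of SLC29A2 cells, 8 of the 40 were at least 2-fold lower with both drugs, against 7.81% of all genes, and in the pair of control cells 5 were, against 4.89%, while 0 of the 40 were at least 2-fold higher in either pair, against 10% of all genes in SLC29A2 cells and 14.2% in control cells. Mitochondrial transcripts took 2.25% of reads in SLC29A2 cells and 1.89% in control cells given both drugs. With the control treatment they took 4.56% in SLC29A2 cells and 3.72% in control cells. Epithelial markers summed to 733 to 1075 FPKM with both drugs and to 2375 to 2781 FPKM with the control treatment. Mesenchymal markers summed to 1067 to 1094 FPKM and 1244 to 1419 FPKM. Of these markers KRT8, KRT18, VIM and THY1 fell with both drugs and PDGFRB rose. KRT19, COL1A1, COL1A2 and FN1 did not pass. The part of these markers and of the mitochondrial transcripts in the result was not tested.

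**Figure D1:**
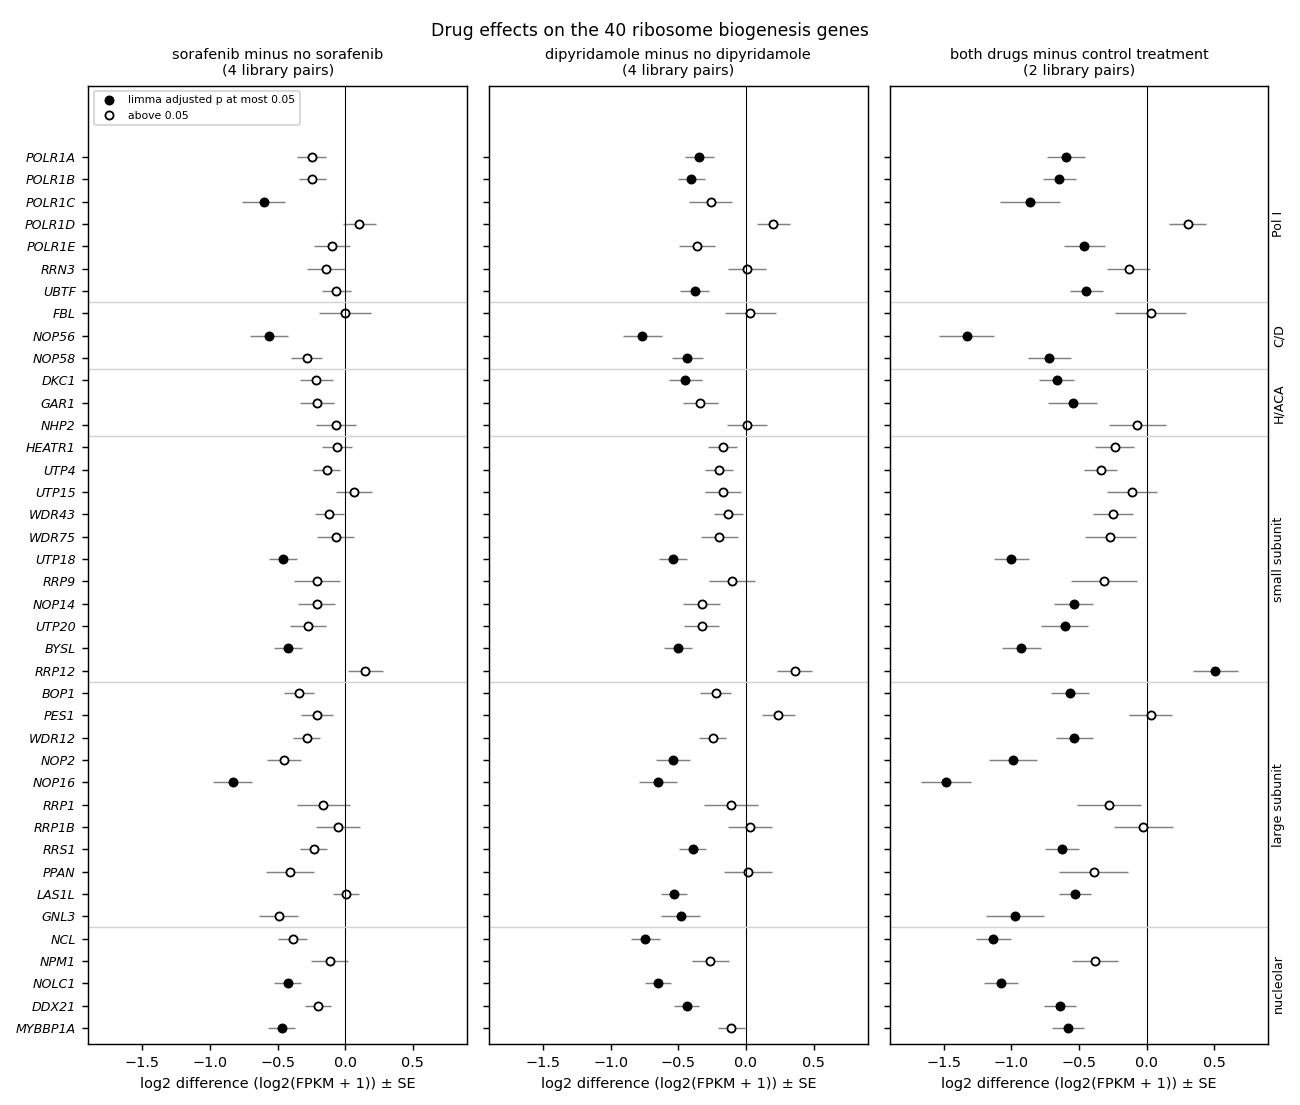
Log2 differences on the log2(FPKM + 1) scale with their standard errors for each of the 40 genes, grouped by role, for sorafenib (4 library pairs), dipyridamole (4 pairs) and both drugs (2 pairs). Filled points passed a limma adjusted p of 0.05: 7, 16 and 25 genes in the 3 panels, with RRP12 as the filled point right of 0.

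The scaling between libraries moved the size of these differences and not their overall direction. With FPKM divided by median-of-ratios size factors, the median of all genes for both drugs moved to -0.03 and that of the 40 genes to -0.74. The number of the 40 genes that passed was then 28 lower and 0 higher for both drugs, 21 lower for dipyridamole and 11 lower for sorafenib. Of the genes called on FPKM as deposited, RRP12 with both drugs was lost under this scaling. The sign turned for POLR1D, UTP15 and LAS1L with sorafenib, for RRN3, FBL, NHP2, RRP1B and PPAN with dipyridamole and for FBL and PES1 with both drugs, none of which had passed. The same scaling turned the split of lower to higher calls over all genes from 302 and 825 to 491 and 443 for sorafenib, from 1745 and 2428 to 2302 and 1850 for dipyridamole, and from 1881 and 3504 to 2849 and 2335 for both drugs.

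**Figure D2:**
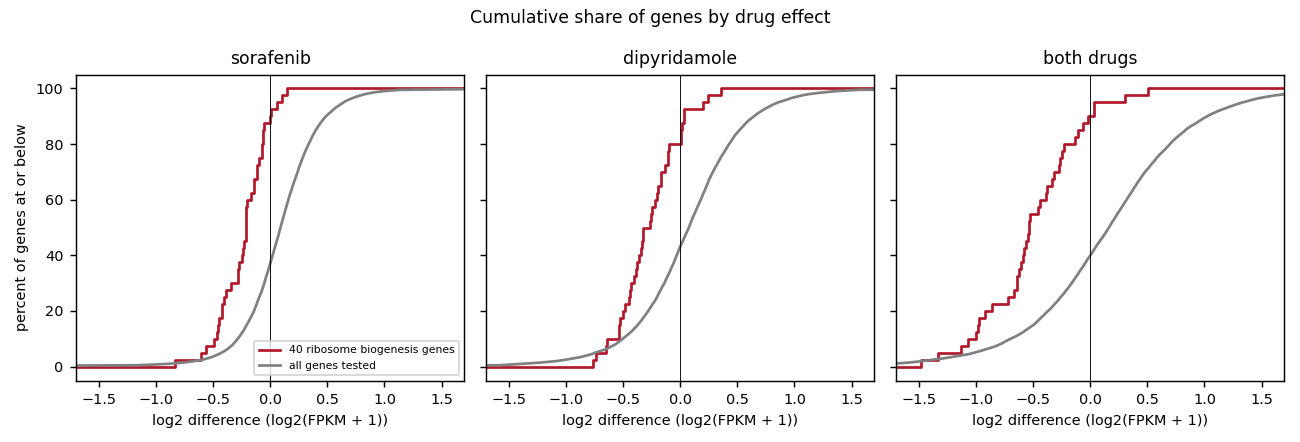
Cumulative percent of genes (vertical) at or below a log2 difference (horizontal) for the 40 ribosome biogenesis genes (red steps) and all 13899 genes tested (grey line), for sorafenib, dipyridamole and both drugs. The medians of the 40 genes lie at -0.21, -0.29 and -0.54, left of those of all genes at 0.09, 0.07 and 0.16.

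Among the 7 polymerase genes, 3 fell with dipyridamole (12.6% of all genes tested), 1 with sorafenib (2.17%) and 5 with both drugs (13.5%). POLR1B (ENSG00000125630; chromosome 2, 112541915 to 112577150, plus strand) encodes the second largest subunit of RNA polymerase I, part of its catalytic centre, and gene positions are those of GENCODE 29. In SLC29A2 cells POLR1B stood at 17.0 FPKM with both drugs, 19.0 with dipyridamole alone, 22.7 with sorafenib alone and 27.5 with the control treatment. Control cells had 16.2 FPKM with both drugs, 19.2 with dipyridamole alone, 20.4 with sorafenib alone and 25.6 with the control treatment. All 4 libraries with dipyridamole lay below all 4 without it, and within each cell type the order ran from both drugs at the bottom to the control treatment at the top. The means were 17.8 ± 1.49 FPKM with dipyridamole and 24.0 ± 3.15 FPKM without it (SD, n = 4 libraries each), a log2 difference of -0.40 ± 0.10 (SE; limma adjusted p = 0.0153). Without the SLC29A2-cell library given sorafenib or its control-treatment counterpart, the limma adjusted p was 0.0546 and 0.0556.

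POLR1C (ENSG00000171453; chromosome 6, 43509702 to 43562419, plus strand) encodes a subunit that RNA polymerases I and III share. Genes on the opposite strand overlap 18.2% of its exon bases, and their reads may be counted with it, since strand is not given. POLR1C measured 13.4 FPKM with both drugs, 25.5 with dipyridamole alone, 24.8 with sorafenib alone and 33.0 with the control treatment in SLC29A2 cells. In control cells it was at 19.4 FPKM with both drugs, 30.4 with dipyridamole alone, 19.0 with sorafenib alone and 27.6 with the control treatment. The 4 sorafenib libraries were all below the 4 others, while dipyridamole alone was below the control treatment in SLC29A2 cells and above it in control cells. Sorafenib gave a log2 difference of -0.60 ± 0.16 (limma adjusted p = 0.0499), and without single libraries the adjusted p ran up to 0.162. The dipyridamole difference of -0.26 ± 0.16 did not pass (limma adjusted p = 0.245).

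The other 5 polymerase genes were POLR1A, the largest subunit, POLR1E, a subunit of its accessory pair, POLR1D, the second subunit shared with RNA polymerase III, and the factors UBTF and RRN3. POLR1A and UBTF fell with dipyridamole, with log2 differences of -0.35 ± 0.11 (limma adjusted p = 0.0382) and -0.38 ± 0.11 (0.0272). POLR1E had -0.36 ± 0.13 with dipyridamole, which did not pass, and -0.46 ± 0.15 with both drugs (limma adjusted p = 0.0465), which did. POLR1D and RRN3 passed for neither drug, with dipyridamole differences of 0.20 and 0.01. RRN3 has near-identical copies in the genome, so its reads are uncertain.

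**Figure D3:**
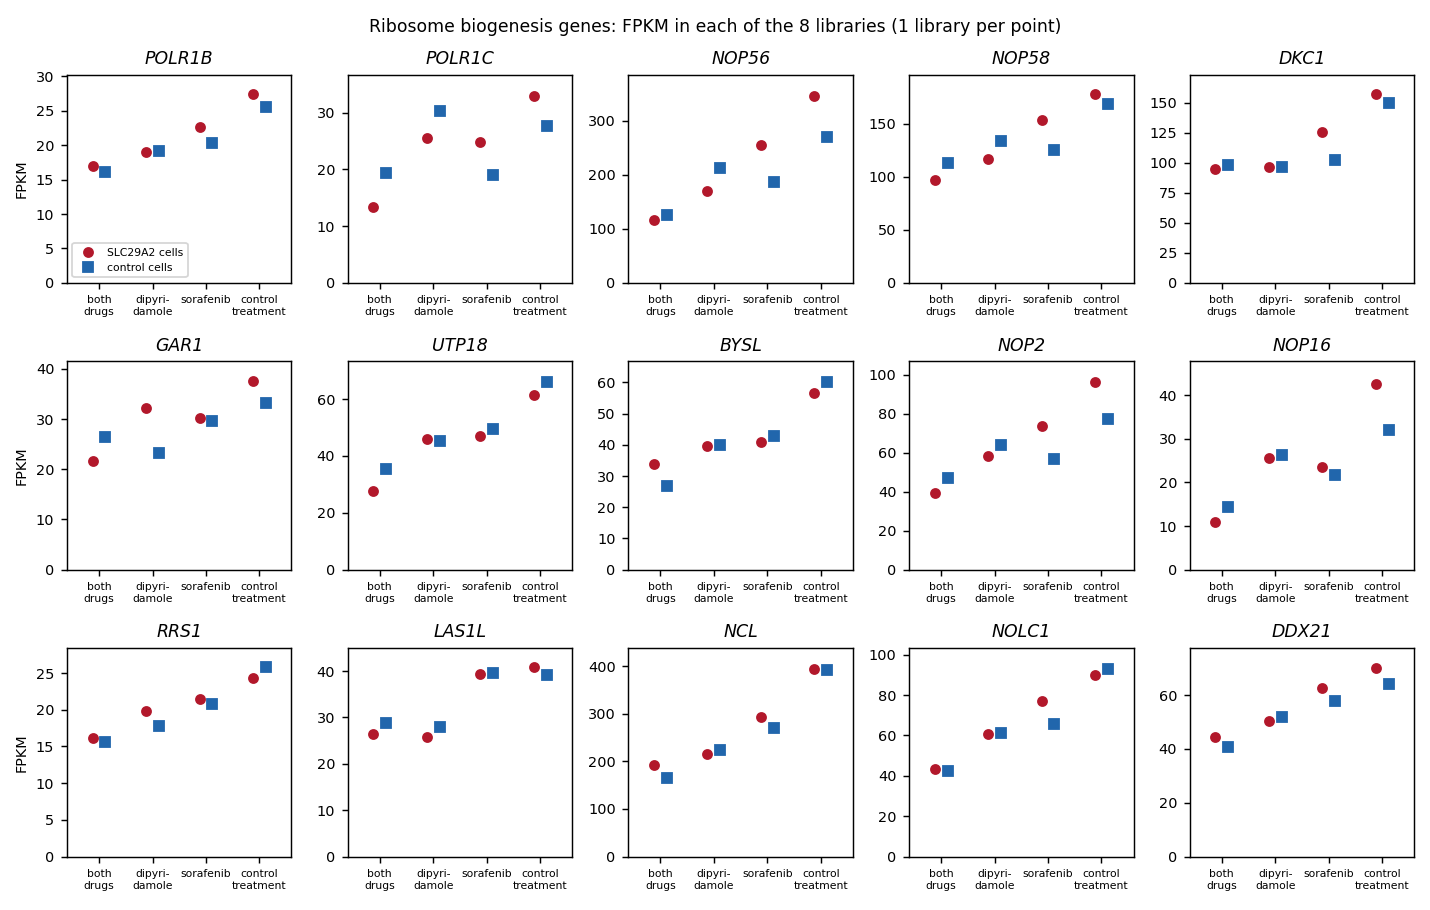
FPKM in each of the 8 libraries for 15 of the 40 genes (red circles, SLC29A2 cells; blue squares, control cells; 1 library per point; each axis starts at 0). NCL, for example, was at 193 FPKM in SLC29A2 cells and 165 FPKM in control cells with both drugs, against 393 FPKM in SLC29A2 cells and 391 FPKM in control cells with the control treatment, and in LAS1L the 4 libraries with dipyridamole form a group below the 4 without it.

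The box C/D particle genes NOP56 and NOP58 fell with dipyridamole, and FBL, the methyltransferase of the particle, did not pass for either drug. NOP56 (ENSG00000101361; chromosome 20, 2652145 to 2658393, plus strand) encodes a scaffold protein of the particle, and its introns host several small nucleolar RNA genes, which share 8.74% of its exon bases. NOP56 had 117 FPKM with both drugs, 170.1 with dipyridamole alone, 255 with sorafenib alone and 345 with the control treatment in SLC29A2 cells. The values in control cells were 125 FPKM with both drugs, 212 with dipyridamole alone, 186 with sorafenib alone and 270.4 with the control treatment. Every library given a drug was below the control treatment of its own cells, and both drugs together gave the lowest value in each cell type, 33.7% of the control treatment in SLC29A2 cells and 46.4% in control cells. The log2 difference was -0.76 ± 0.14 for dipyridamole (limma adjusted p = 0.00454, at most 0.0206 with a library left out) and -0.57 ± 0.14 for sorafenib (adjusted p = 0.0442, up to 0.126).

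NOP58 (ENSG00000055044; chromosome 2, 202265716 to 202303666, plus strand) encodes the partner of NOP56 on the guide RNA. It stood at 97.0 FPKM with both drugs, 116 with dipyridamole alone, 153 with sorafenib alone and 178 with the control treatment in SLC29A2 cells. For control cells the values were 113 FPKM with both drugs, 134 with dipyridamole alone, 125 with sorafenib alone and 169 with the control treatment. Both cell types had their highest value with the control treatment and their lowest with both drugs, and the ranges with and without dipyridamole overlapped. NOP58 differed by -0.43 ± 0.11 with dipyridamole (limma adjusted p = 0.0203) and by -0.28 ± 0.11 with sorafenib, which did not pass (0.152). The dipyridamole call was lost without the SLC29A2-cell libraries given dipyridamole, sorafenib or the control treatment (limma adjusted p = 0.0652, 0.0761 and 0.0724).

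Of the box H/ACA genes, DKC1 fell with dipyridamole and GAR1 with both drugs. DKC1 (ENSG00000130826; chromosome X, 154762742 to 154777689, plus strand) encodes dyskerin, the pseudouridine synthase that also binds telomerase RNA. Dyskerin message was at 95.2 FPKM with both drugs, 96.3 with dipyridamole alone, 126 with sorafenib alone and 158 with the control treatment in SLC29A2 cells. Control cells showed 98.1 FPKM with both drugs, 96.5 with dipyridamole alone, 103 with sorafenib alone and 149.9 with the control treatment. The 4 libraries with dipyridamole lay within 95.2 to 98.1 FPKM, below all 4 without it. Means were 96.5 ± 1.18 FPKM with dipyridamole and 134 ± 25.0 FPKM without it (SD, n = 4 libraries each), with a log2 difference of -0.45 ± 0.12 (limma adjusted p = 0.0232). Left-out libraries gave a limma adjusted p of 0.0748, 0.0543 and 0.0823 for the SLC29A2-cell libraries given dipyridamole, sorafenib and the control treatment, and of 0.0621 and 0.0687 for the control-cell libraries given dipyridamole and the control treatment.

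GAR1 (ENSG00000109534; chromosome 4, 109815510 to 109824740, plus strand) encodes a smaller subunit of the same particle. GAR1 was at 21.6 FPKM with both drugs, 32.1 with dipyridamole alone, 30.2 with sorafenib alone and 37.6 with the control treatment in SLC29A2 cells. In control cells GAR1 was at 26.4 FPKM with both drugs, 23.2 with dipyridamole alone, 29.6 with sorafenib alone and 33.2 with the control treatment. The control treatment was the highest library of each cell type, but the lowest was both drugs in SLC29A2 cells and dipyridamole alone in control cells. Neither drug passed on its own (limma adjusted p = 0.0749 for dipyridamole and 0.324 for sorafenib), and both drugs gave -0.55 ± 0.18 (adjusted p = 0.0484).

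In the small subunit group of 11 genes, UTP18 and BYSL fell with each drug, and the other 9 genes passed for neither. Over all genes tested, 12.6% fell with dipyridamole and 2.17% with sorafenib. UTP18 (ENSG00000011260; chromosome 17, 51260528 to 51297936, plus strand) encodes a protein of the small subunit processome, the particle that forms on the growing precursor. UTP18 stood at 27.8 FPKM with both drugs, 45.8 with dipyridamole alone, 47.0 with sorafenib alone and 61.6 with the control treatment in SLC29A2 cells. Its control-cell values were 35.5 FPKM with both drugs, 45.4 with dipyridamole alone, 49.3 with sorafenib alone and 65.9 with the control treatment. All 4 libraries with dipyridamole were below all 4 without it, and both drugs left 45.1% of the control treatment in SLC29A2 cells and 53.8% in control cells. The log2 difference was -0.54 ± 0.10 for dipyridamole (limma adjusted p = 0.00493, at most 0.021 with a library left out) and -0.46 ± 0.10 for sorafenib (adjusted p = 0.0303, up to 0.0941).

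BYSL (ENSG00000112578; chromosome 6, 41921188 to 41933046, plus strand) encodes bystin, which acts late in the making of the small subunit. Bystin message measured 33.9 FPKM with both drugs, 39.5 with dipyridamole alone, 41.1 with sorafenib alone and 56.5 with the control treatment in SLC29A2 cells. Among control cells it measured 26.9 FPKM with both drugs, 39.98 with dipyridamole alone, 42.9 with sorafenib alone and 60.1 with the control treatment. The libraries with and without dipyridamole did not overlap, and each cell type had its lowest value with both drugs. BYSL averaged 35.1 ± 6.10 FPKM with dipyridamole and 50.1 ± 9.57 FPKM without it (SD, n = 4 libraries each). Its log2 difference was -0.50 ± 0.11 for dipyridamole (limma adjusted p = 0.00806, at most 0.0335 with a library left out) and -0.42 ± 0.11 for sorafenib (adjusted p = 0.0441, up to 0.139).

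The remaining small subunit genes include HEATR1, UTP4, UTP15, WDR43 and WDR75, whose proteins are known to join early transcription and processing of the precursor, and RRP9, NOP14, UTP20 and RRP12, which act in processing or export. Their dipyridamole differences ran from -0.33 for NOP14 to 0.36 for RRP12. With both drugs NOP14 (-0.54 ± 0.14; limma adjusted p = 0.0225) and UTP20 (-0.60 ± 0.17; 0.0309) fell. NOP14 shares 17.1% of its exon bases with NOP14-AS1 on the opposite strand. RRP12 was chosen for description after its values were seen, as the 1 gene of the 40 called higher. In SLC29A2 cells RRP12 had 8.69 FPKM with both drugs, 7.52 with dipyridamole alone, 6.83 with sorafenib alone and 6.79 with the control treatment. RRP12 in control cells had 9.21 FPKM with both drugs, 8.23 with dipyridamole alone, 6.48 with sorafenib alone and 5.28 with the control treatment. All 4 libraries with dipyridamole lay above all 4 without it, which held for 13% of all genes tested. The difference with dipyridamole was 0.36 ± 0.13 and did not pass (limma adjusted p = 0.0601), and that with both drugs was 0.51 ± 0.17 (adjusted p = 0.0481), a call lost under size factors.

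Of the 11 large subunit genes, 5 fell with dipyridamole (12.6% of all genes tested), NOP16 also fell with sorafenib (2.17%), and 7 fell with both drugs (13.5%). NOP16 (ENSG00000048162; chromosome 5, 176383938 to 176388975, minus strand) encodes a nucleolar protein of large subunit precursors, and 19.95% of its exon bases overlap opposite-strand genes. NOP16 stood at 11.01 FPKM with both drugs, 25.6 with dipyridamole alone, 23.6 with sorafenib alone and 42.7 with the control treatment in SLC29A2 cells. The control-cell libraries had 14.4 FPKM with both drugs, 26.3 with dipyridamole alone, 21.8 with sorafenib alone and 32.0 with the control treatment. Both drugs together left 25.8% of the control treatment in SLC29A2 cells and 45.0% in control cells, the lowest percent of the 40 genes in SLC29A2 cells, where NOP56 came next, and the third lowest in control cells, after NCL and BYSL. The 4 libraries with sorafenib all lay below the 4 without it. Sorafenib gave a log2 difference of -0.83 ± 0.14 (limma adjusted p = 0.0129), with an adjusted p of 0.061 and 0.056 without the control-cell or the SLC29A2-cell library given dipyridamole. Dipyridamole gave -0.65 ± 0.14 (limma adjusted p = 0.00905).

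NOP2 (ENSG00000111641; chromosome 12, 6556863 to 6568691, minus strand) encodes a methyltransferase of large subunit RNA, and 54.4% of its exon bases are shared with AC006064.6 on the same strand, so its reads are uncertain. NOP2 measured 39.4 FPKM with both drugs, 58.0 with dipyridamole alone, 73.5 with sorafenib alone and 96.0 with the control treatment in SLC29A2 cells. It measured 46.7 FPKM with both drugs, 63.7 with dipyridamole alone, 56.9 with sorafenib alone and 77.2 with the control treatment in control cells. Every drug-treated library was below the control treatment of its own cells. Dipyridamole gave a log2 difference of -0.54 ± 0.13 (limma adjusted p = 0.0122, at most 0.0458 with a library left out), and sorafenib gave -0.45 ± 0.13, which did not pass (0.0592).

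LAS1L (ENSG00000001497; chromosome X, 65512582 to 65534775, minus strand) encodes a nucleolar protein needed to cut the spacer beside the large subunit RNA. SLC29A2 cells held LAS1L at 26.4 FPKM with both drugs, 25.9 with dipyridamole alone, 39.3 with sorafenib alone and 40.8 with the control treatment. LAS1L in control cells was at 28.7 FPKM with both drugs, 28.0 with dipyridamole alone, 39.7 with sorafenib alone and 39.3 with the control treatment. The 8 values formed a low group of 25.9 to 28.7 FPKM with dipyridamole and a high group of 39.3 to 40.8 FPKM without it, with or without sorafenib. The means were 27.2 ± 1.34 FPKM with dipyridamole and 39.8 ± 0.747 FPKM without it (SD, n = 4 libraries each), a log2 difference of -0.53 ± 0.09 (limma adjusted p = 0.00376, at most 0.019 with a library left out). Sorafenib gave 0.0053 ± 0.095 (limma adjusted p = 0.98), a value whose sign changed under size factors. In the 2 other genes just described in this group, NOP16 and NOP2, the sorafenib differences were -0.83 and -0.45. Whether the drugs' effects differed from each other was not tested.

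RRS1 (ENSG00000179041) encodes a factor that helps to install the small 5S RNA in the large subunit. AC009879.2 on the same strand shares 11.4% of its exon bases. The gene stood at 16.2 FPKM with both drugs, 19.8 with dipyridamole alone, 21.5 with sorafenib alone and 24.3 with the control treatment in SLC29A2 cells. Corresponding control-cell values were 15.6 FPKM with both drugs, 17.8 with dipyridamole alone, 20.7 with sorafenib alone and 25.8 with the control treatment. Libraries with and without dipyridamole did not overlap. The log2 difference was -0.39 ± 0.10 (limma adjusted p = 0.0179), and it was lost without the control-cell libraries given dipyridamole, sorafenib or the control treatment (0.0502, 0.059 and 0.0669) or the SLC29A2-cell library given sorafenib (0.0601).

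BOP1, PES1 and WDR12 encode the 3 proteins of the PeBoW complex, which is required for maturing the large subunit RNA. BOP1 and WDR12 fell with both drugs, with log2 differences of -0.57 ± 0.14 (limma adjusted p = 0.0194) and -0.53 ± 0.14 (0.0205). PES1 had 0.03 ± 0.16 with both drugs (limma adjusted p = 0.895) and 0.24 ± 0.12 with dipyridamole (0.164). GNL3, which encodes nucleostemin, fell with dipyridamole (-0.48 ± 0.14; limma adjusted p = 0.0335) and was at 62.4 FPKM in SLC29A2 cells and 98.4 FPKM in control cells given both drugs, against 167 FPKM in SLC29A2 cells and 144 FPKM in control cells with the control treatment. The assembly factors RRP1, RRP1B and PPAN passed for neither drug, with dipyridamole differences of -0.11, 0.03 and 0.02. PPAN shares 59.8% of its exon bases with P2RY11 and a read-through gene.

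In the nucleolar scaffold group, 3 of 5 genes fell with dipyridamole (12.6% of all genes tested) and 2 with sorafenib (2.17%). NCL (ENSG00000115053; chromosome 2, 231453531 to 231483641, minus strand) encodes nucleolin, an abundant protein that binds ribosomal DNA and the precursor. NCL was at 193 FPKM with both drugs, 216 with dipyridamole alone, 293 with sorafenib alone and 393 with the control treatment in SLC29A2 cells. Nucleolin message in control cells was at 165 FPKM with both drugs, 223 with dipyridamole alone, 269.6 with sorafenib alone and 391 with the control treatment. All 4 libraries with dipyridamole lay below all 4 without it, and the cell types had nearly the same value with the control treatment. The means were 199 ± 26.5 FPKM with dipyridamole and 337 ± 64.7 FPKM without it (SD, n = 4 libraries each), a log2 difference of -0.74 ± 0.11 with the smallest limma adjusted p of the 40 genes for this drug (0.00125, at most 0.00717 with a library left out). Sorafenib gave -0.39 ± 0.11 and did not pass (limma adjusted p = 0.0542).

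NOLC1 (ENSG00000166197; chromosome 10, 102152176 to 102163871, plus strand) encodes a chaperone that shuttles small nucleolar ribonucleoproteins. Its values were 43.4 FPKM with both drugs, 60.7 with dipyridamole alone, 77.3 with sorafenib alone and 89.8 with the control treatment in SLC29A2 cells. NOLC1 was measured at 42.3 FPKM with both drugs, 61.0 with dipyridamole alone, 65.4 with sorafenib alone and 93.0 with the control treatment in control cells. Libraries with and without dipyridamole did not overlap, and the lowest value of each cell type came with both drugs, 48.3% of the control treatment in SLC29A2 cells and 45.4% in control cells. The log2 difference was -0.65 ± 0.10 for dipyridamole (limma adjusted p = 0.00171, at most 0.00875 with a library left out) and -0.43 ± 0.10 for sorafenib (adjusted p = 0.0343, up to 0.109).

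DDX21 (ENSG00000165732; chromosome 10, 68956128 to 68985073, plus strand) encodes an RNA helicase that works with both RNA polymerase I and RNA polymerase II. DDX21 stood at 44.6 FPKM with both drugs, 50.3 with dipyridamole alone, 62.8 with sorafenib alone and 70.2 with the control treatment in SLC29A2 cells. Its helicase message in control cells stood at 40.8 FPKM with both drugs, 51.7 with dipyridamole alone, 57.8 with sorafenib alone and 64.0 with the control treatment. The 4 libraries with dipyridamole were all below the 4 without it. Dipyridamole gave a log2 difference of -0.44 ± 0.09 (limma adjusted p = 0.00823, at most 0.0356 with a library left out), and sorafenib gave -0.20 ± 0.09 and did not pass (0.204). The coregulator gene MYBBP1A fell with sorafenib (-0.47 ± 0.10; limma adjusted p = 0.0272), and its dipyridamole difference of -0.11 ± 0.10 did not pass (0.434). NPM1, the most abundant of the 40 messages at 957 to 1419 FPKM, passed for neither drug and has many processed copies in the genome.

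**Figure D4:**
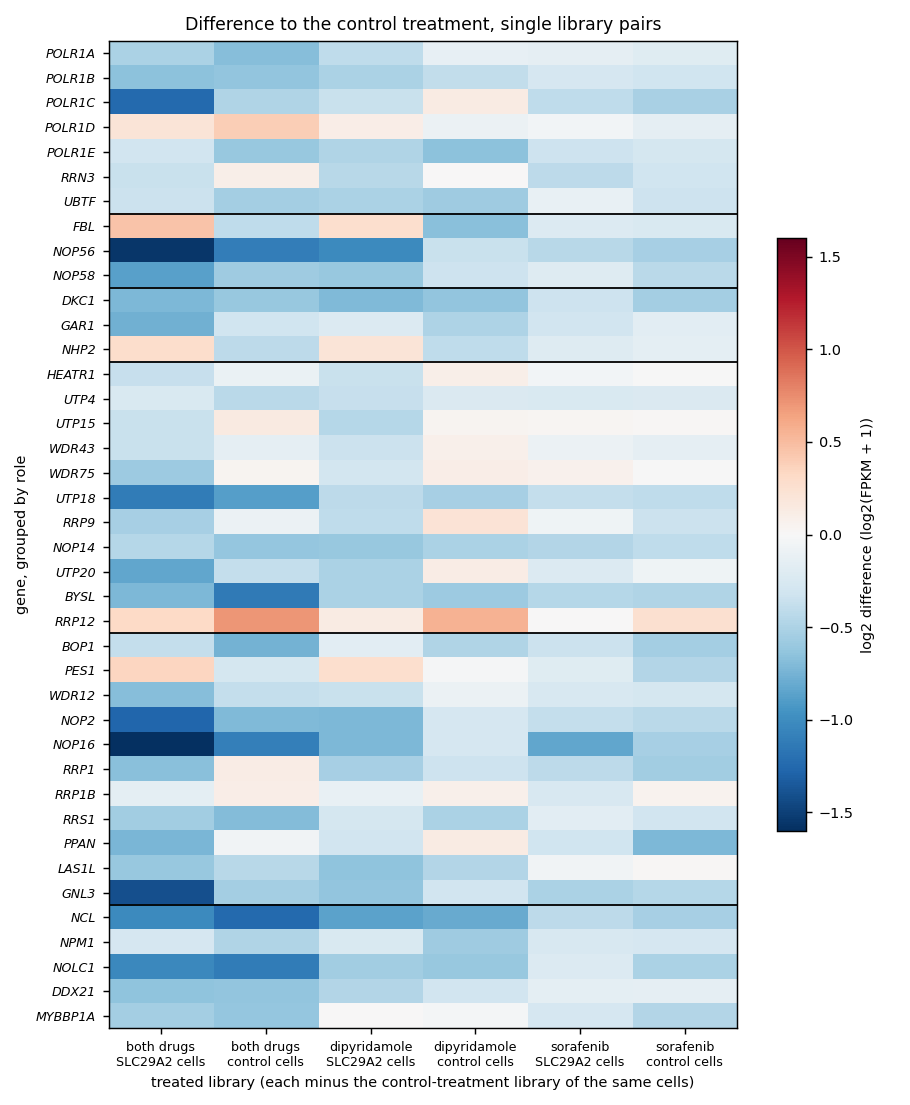
Log2 differences on the log2(FPKM + 1) scale of each treated library to the control-treatment library of the same cells, for the 40 genes in rows grouped by role (blue, lower than the control treatment; red, higher; 1 library pair per column). With both drugs the median of the 40 genes was -0.57 in SLC29A2 cells and -0.49 in control cells.

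With both drugs, some calls were lost when a library was left out, which also removes a residual degree of freedom. Of the 15 genes plotted by library, all of which passed for both drugs, NOP56, UTP18, BYSL, NOP2, NOP16, NCL and NOLC1 passed with each library left out. Without the control-treatment library of SLC29A2 cells, 9 of the 40 genes passed, and the limma adjusted p was 0.056 for POLR1B, 0.125 for POLR1C, 0.0811 for NOP58, 0.0541 for DKC1, 0.194 for GAR1, 0.12 for LAS1L and 0.0557 for DDX21. Without the control-treatment library of control cells 12 passed, with limma adjusted p values of 0.0505 for NOP58, 0.0569 for DKC1, 0.129 for GAR1, 0.0861 for RRS1 and 0.06 for LAS1L. Without the SLC29A2-cell library given both drugs 16 passed, and limma gave adjusted p values of 0.122 for POLR1C, 0.0721 for NOP58, 0.259 for GAR1 and 0.0591 for LAS1L. GAR1 was also lost without the SLC29A2-cell or the control-cell library given sorafenib (limma adjusted p = 0.0652 and 0.0659). The log2 differences with a library left out stayed between -0.66 and -0.63 for POLR1B and between -0.67 and -0.61 for DDX21, and spread more widely for POLR1C (-1.18 to -0.55) and GAR1 (-0.80 to -0.30).

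Ectopic SLC29A2 by itself came with no called difference in any of the 40 genes. Over the 4 library pairs, 0 of the 40 passed in limma, where 0.00719% of all genes tested did, which is SLC29A2 itself. At an unadjusted p under 0.05 limma gave 0 of the 40, against 3.93% of all genes, and voom on recovered reads called 0 of the 40 and 1 gene in all. The 40 differences ran from -0.30 for RRP1 to 0.28 for NHP2, with a median of 0.05 against -0.06 for all genes. Of the 40 differences 28 were positive, against 34.0% over all genes tested. Under size factors the median was 0.14 for the 40 genes and 0.02 for all genes. The smallest limma adjusted p among the 40 genes was 0.965.

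The cell types were also compared in how the 40 genes differed with each drug. No interaction passed for any of the 40 in limma: 0 for sorafenib with dipyridamole, where 0.0863% of all genes passed, 0 for SLC29A2 cells with sorafenib, where 0% did, and 0 for SLC29A2 cells with dipyridamole, where 0% did. At an unadjusted p under 0.05 limma gave 1 of the 40 for sorafenib with dipyridamole, against 13.2% of all genes tested, 0 for SLC29A2 cells with sorafenib, against 0.719%, and 12 for SLC29A2 cells with dipyridamole, against 19.8%. Voom on recovered reads called 0 of the 40 in each, and 37, 0 and 0 of all genes. For SLC29A2 cells with dipyridamole, 28 of the 40 interactions were negative, against 62.7% over all genes, and the median was -0.09 for the 40 genes and -0.14 for all genes. Of the 12 genes under an unadjusted p of 0.05, 10 had a lower dipyridamole difference in SLC29A2 cells than in control cells (POLR1C, NOP56, NOP58, UTP15, WDR75, RRP9, UTP20, NOP2, PPAN and GNL3), and FBL and NHP2 had a higher one. With size factors the sign of this interaction turned in 11 of the 40 genes, none of them among these 12.

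FBL and NHP2 are described here, chosen after their values were seen. FBL stood at 229 FPKM with both drugs, 199.8 with dipyridamole alone, 142 with sorafenib alone and 166 with the control treatment in SLC29A2 cells. FBL in control cells stood at 153 FPKM with both drugs, 128 with dipyridamole alone, 171 with sorafenib alone and 203 with the control treatment. It was higher with dipyridamole in both pairs of SLC29A2 cells and lower with it in both pairs of control cells. The interaction was 0.89 ± 0.23 (limma adjusted p = 0.133).

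NHP2, a core protein of the box H/ACA particle, had the same pattern. In SLC29A2 cells NHP2 stood at 106 FPKM with both drugs, 75.1 FPKM with sorafenib alone and 86.6 FPKM with the control treatment, with dipyridamole alone between the values for both drugs and the control treatment. For NHP2 in control cells they were 66.4 FPKM with both drugs, 66.7 with dipyridamole alone, 79.8 with sorafenib alone and 89.1 with the control treatment. Its interaction was 0.68 ± 0.17 (limma adjusted p = 0.127), the smallest adjusted p of the 40 genes, and 27.4% of its exon bases overlap RMND5B on the opposite strand. POLR1C, UTP15, WDR75, RRP9 and PPAN had the opposite arrangement, lower with dipyridamole in both pairs of SLC29A2 cells and higher with it in both pairs of control cells. The control-cell libraries on which these values rest are those with more reads outside protein-coding genes, and the part of that composition was not tested.

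**Figure D5:**
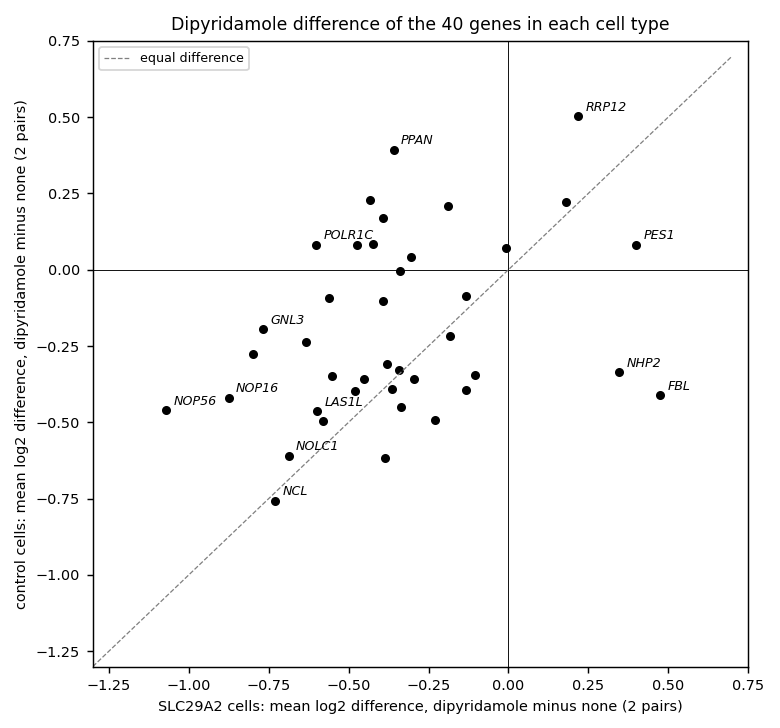
Mean log2 difference with dipyridamole of the 40 genes in SLC29A2 cells (horizontal, 2 library pairs) and in control cells (vertical, 2 library pairs), on the log2(FPKM + 1) scale; the dashed line marks equal differences and some genes are named. FBL and NHP2 lie right of 0 and below 0, NCL and NOLC1 lie near the dashed line, and 0 of the 40 interactions passed the limma test.

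Other genes of RNA polymerase I, small nucleolar ribonucleoproteins and small and large subunit assembly were taken from 4 further lists. Of these, 97 genes could be tested, and the lists were also chosen with earlier results of these data known. With dipyridamole, 17 of the 97 fell and 1 rose, where 12.6% of all genes fell and 17.5% rose. The higher one was NOP53 (0.58 ± 0.18; limma adjusted p = 0.0393). With sorafenib 5 fell and 0 rose (2.17% and 5.94% of all genes). With both drugs 23 fell (13.5% of all genes) and NMD3 alone rose (0.42 ± 0.14; limma adjusted p = 0.0463). Both higher calls were lost under size factors. The medians of the 97 genes were -0.13 for sorafenib, -0.12 for dipyridamole and -0.27 for both drugs, against 0.09, 0.07 and 0.16 for all genes tested. With dipyridamole the small subunit gene NOL11 fell, with a log2 difference of -0.56 ± 0.11 (limma adjusted p = 0.00579), as did the large subunit genes MRTO4, DDX56 and NOL12, with -0.64 ± 0.10 (0.0017), -0.51 ± 0.10 (0.00529) and -1.13 ± 0.23 (0.00671), the assembly helicase gene RUVBL1, with -0.63 ± 0.15 (0.012), and POLR2L, a small subunit shared by the RNA polymerases, with -0.80 ± 0.14 (0.00412). With sorafenib EBNA1BP2, MRTO4 and NOC2L of the large subunit list fell, with log2 differences of -0.56 ± 0.09, -0.45 ± 0.10 and -0.36 ± 0.09 (limma adjusted p = 0.0123, 0.0289 and 0.0449).

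MYC, whose product is a known activator of these genes, did not pass for either drug. The MYC message stood at 105 FPKM with both drugs, 189.6 with dipyridamole alone, 116 with sorafenib alone and 140.0 with the control treatment in SLC29A2 cells. MYC in control cells stood at 147 FPKM with both drugs, 154 with dipyridamole alone, 117 with sorafenib alone and 152 with the control treatment. The 2 libraries without sorafenib were the higher of each cell type, and libraries with and without dipyridamole overlapped. The log2 differences were 0.16 ± 0.13 for dipyridamole (limma adjusted p = 0.385) and -0.39 ± 0.13 for sorafenib (0.0982). Among 10 tested genes of the MYC and MAX network, 5 rose and 1 fell with dipyridamole, where 17.5% of all genes rose and 12.6% fell. MXD1 and MXI1, which encode partners of MAX that oppose MYC, rose by 1.12 ± 0.15 (limma adjusted p = 0.000821) and 0.97 ± 0.14 (0.00147), and MXD3, of the same family, fell, with -1.26 ± 0.11 (0.000132). The others of the 5 that rose with dipyridamole were MYCL, of the MYC family (0.64 ± 0.20; limma adjusted p = 0.0373), MNT (0.65 ± 0.14; 0.00883) and MXD4 (0.54 ± 0.15; 0.0263). Under size factors the MXD4 call was lost. With sorafenib 0 of the 10 passed, where 2.17% of all genes fell and 5.94% rose.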

How the data were processed

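RNA sequencing profiled 8 libraries of SK-Hep1 cells, 1 per condition, made from polyadenylated RNA per the labels' protocols. The deposited values are FPKM, which the authors computed. Per the submitters' processing notes, the build was GRCh38.p12 and the tools included HTSeq 0.6.1, TopHat2 2.0 and edgeR, without stated roles. Since strand is not given, sense and antisense reads may be mixed: 13 of the 40 genes share exon bases with an opposite-strand gene and 9 with a same-strand gene in GENCODE 29. FPKM multiplied by mean transcript length fell on whole reads for 93.3% of values (tolerance 0.01), and voom on these recovered reads called 1521 genes for sorafenib, 4794 for dipyridamole and 5943 for both drugs, of 14936. The 40 genes, their role groups and the other gene lists were chosen with earlier results of these data known.

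In R 4.3.3, limma 3.58.1 was run on log2(FPKM + 1), a scale that understates changes of low genes, over the 13899 genes averaging 1 FPKM or more, with its trend option. Tests were two-sided, adjusted by Benjamini-Hochberg. The additive model left 4 residual degrees of freedom, and interactions were added singly. No condition had a replicate, so p-values measure the spread between these 8 libraries, which may be technical, together with any interaction. The fits were run on simulated data with independent noise per gene and no interactions, which cannot show how unreplicated libraries affect the calls. Genes plotted by library and given with all their values were 15 in all. They were the 12 with the smallest adjusted p over the main effects and interactions, plus 2 per role group with the largest mean drug effect. RRP12, FBL and NHP2 were added after their values were seen, and MYC is always given. Of each other list at most 3 genes per comparison were named by smallest adjusted p. Genes called higher in the 4 further lists and in the MYC and MAX network were also named. Alternatives were a pseudocount of 0.1, no filter or a mean of at least 5 FPKM, size factors, voom, libraries left out, and other models.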

Additional observations from a re-analysis of the deposited data

How the results depend on the processing

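Among the 40 genes, dipyridamole called 16, with 9 to 16 when a library was left out, 27 with all pairwise interactions in the model (25 lower, 2 higher) and 9 with 4 separate treatments. Both drugs called 25, with 9 to 23 when a library was left out. Sorafenib called 7, with 0 to 6 when a library was left out, 0 without the filter on low values, 11 with size factors, 11 with voom, 1 without both dipyridamole-treated control-cell libraries, 20 with all pairwise interactions and 0 with 4 separate treatments. The cell type called 0 in every setting run, and each interaction called 0, with 1 exception. Sorafenib with dipyridamole called 11 without both dipyridamole-treated control-cell libraries, a fit with 1 residual degree of freedom. The share over all genes in that fit is not given here, so the 11 are not read as a result about the 40 genes. The model with all pairwise interactions also left 1 residual degree of freedom. With 4 separate treatments, each drug alone was compared with the control treatment over 2 library pairs. That is a different quantity from the effect over 4 pairs. The cause of these changes in calls was not tested. Over all genes, sorafenib called 1127 and between 89 (4 separate treatments) and 4839 (all pairwise interactions); dipyridamole called 4173 and between 2134 and 7411 in the same settings. The sorafenib difference of LAS1L, which was not called, turned from 0.0053 to -0.11 with size factors, -0.10 with voom, -0.0045 without both dipyridamole-treated control-cell libraries and -0.021 with 4 separate treatments, and ran from -0.019 to 0.037 with a library left out. No other drug difference of the 15 genes changed direction. Of the genes described, 9 of 13 kept their dipyridamole call, 7 of 15 their call for both drugs and 0 of 6 their sorafenib call with each library left out. No paired analysis was possible because replicate numbers, 1 per condition, pair no libraries beyond the cell type and drug terms that the model already holds.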

Other observations

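The RNA exosome, which trims the precursor of ribosomal RNA, was listed separately. Of its 14 genes, all tested, 5 fell and 0 rose with dipyridamole, where 12.6% of all genes fell. EXOSC2 fell, with a log2 difference of -0.66 ± 0.12 (limma adjusted p = 0.00389), EXOSC10, a catalytic subunit, with -0.42 ± 0.10 (0.0123) and EXOSC8 with -0.63 ± 0.16 (0.0162). With sorafenib only EXOSC4 of the 14 fell (-0.60 ± 0.12; limma adjusted p = 0.0227), where 2.17% of all genes fell.

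RNA polymerase III, which makes the small 5S ribosomal RNA and transfer RNAs, was also listed separately. Of 21 genes of the polymerase and its factors, 6 fell and 3 rose with dipyridamole (12.6% and 17.5% of all genes tested), and with size factors 8 fell and 3 rose. The subunit gene POLR3D rose by 0.79 ± 0.13 (limma adjusted p = 0.0024), while POLR3B and the factor gene GTF3C6 fell, with -0.57 ± 0.12 (0.00905) and -0.57 ± 0.13 (0.0118). POLR1C, 1 of the 2 subunits that this polymerase shares with RNA polymerase I, did not pass for dipyridamole, and neither did POLR1D.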
